A study of Mus musculus with 24 samples.

Results

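Open chromatin in the liver of A/J mice after a return from high fat to control diet was compared with that of A/J mice kept on control diet. The comparison joins the peak list of the Reversal group with that of the Control group on chromosomes 1 to 19, and peaks of the 2 lists that shared 1 bp or more were merged into 1 region. This gave 37634 regions, out of 49364 regions in all 6 peak lists of the series. Reversal mice spent 8 weeks on high fat diet and a further 8 weeks on control diet. Control mice ate control diet for 16 weeks. Another A/J group, HF, ate high fat diet for 16 weeks, and the series holds the same 3 diets in C57BL/6J, another inbred strain. Each of these 6 groups had 2 FAIRE-seq libraries and 1 peak list, so no difference between lists below has a replicate check and none was tested. The labels leave it unsaid whether both libraries of a group are from different mice, and give neither sex nor age. Reversal also differs from HF both in the return to control diet and in 8 fewer weeks of high fat, which cannot be told apart.

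FAIRE-seq recovers DNA that is poorly crosslinked to nucleosomes, and so marks open chromatin at promoters, enhancers and insulators. In the liver, strong open sites at promoters tend to be shared by most conditions, while distal enhancers bound by liver transcription factors respond more to feeding and hormones. Whole liver was used, so fewer cells with an open site and less opening per cell cannot be told apart. The series asks whether open chromatin that high fat diet changes stays changed once the diet is withdrawn.

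The A/J Reversal list held 34741 peaks on these chromosomes and the A/J Control list 35811, covering 21.4 and 23.6 Mb. Each peak carries a signal value from the authors, whose scale is unknown, and it serves here only to rank peaks within a list. Ranks are given as a strength percentile, from 0 for the weakest to 100 for the strongest peak of a list, and a region takes that of its strongest peak. Ranks in lists of different length do not by themselves show a change. Positions are in mm9 and 1-based. The genes there are not named, because the annotation used here is of another assembly.

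Most open regions were found on both diets. Of the 37634 regions, 32086 (85.3%, 95% Wilson interval 84.9 to 85.6) held a peak in both lists, 1977 held a Reversal peak alone and 3571 held a Control peak alone. Reversal-only regions thus made up 5.25% of all regions and Control-only regions 9.49%. As a share of each list, 5.80% of regions with a Reversal peak (5.56 to 6.06) had no Control peak, and between 9.71% and 10.3% (Wilson interval) of regions with a Control peak had no Reversal peak. All such intervals describe counting error alone. By covered bases, the overlap took up 94.6% of the Reversal list and 86.0% of the Control list. With the Control list shortened to the length of the Reversal list, the counts were 2338 Reversal-only and 2875 Control-only regions, so that the size of the gap between them depended on list length while its direction did not.

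Few overlapping pairs lay near the limit for merging. The smallest overlap between peaks of the 2 lists was 1 bp, and only 36 of 32918 overlapping pairs shared less than 50% of the shorter peak. On the other side of the threshold, the nearest Control peak lay 6 bp from a Reversal-only region and the nearest Reversal peak 17 bp from a Control-only region. The median distance was 5395 bp for Reversal-only and 4397 bp for Control-only regions, and 392 (19.8%) and 1003 (28.1%) of them had a peak of the other list within 1000 bp. With peaks up to 500 bp apart joined, there were 1709 Reversal-only and 2811 Control-only regions.

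Regions in 1 list only were weak and narrow. The median strength percentile was 8.03 for Reversal-only regions (quartiles 3.63 and 14.3) in the Reversal list and 8.54 for Control-only regions (3.84 and 14.6) in the Control list. Among the weakest 20% of each list, 25.7% of Reversal regions (24.7 to 26.8) had no Control peak and 44.4% of Control regions (43.2 to 45.5) had no Reversal peak. Between the percentiles of 20 and 40 these shares were 3.52% (3.11 to 3.99) and 5.88% (5.36 to 6.46), and from 40 to 60 they were 0.118% and 0.0280%. Above the percentile of 50 there were 3 Reversal-only regions among 17189 and 0 Control-only regions among 17867. The median width was 279 bp for Reversal-only and 312 bp for Control-only regions, against 496 bp for shared regions in the Reversal list and 542 bp in the Control list. At the same strength the gap in width was small: in the weakest 20%, Reversal-only regions had a median of 275 bp against 298 bp for shared regions, and Control-only regions 305.5 bp against 302 bp.

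**Figure D1:**
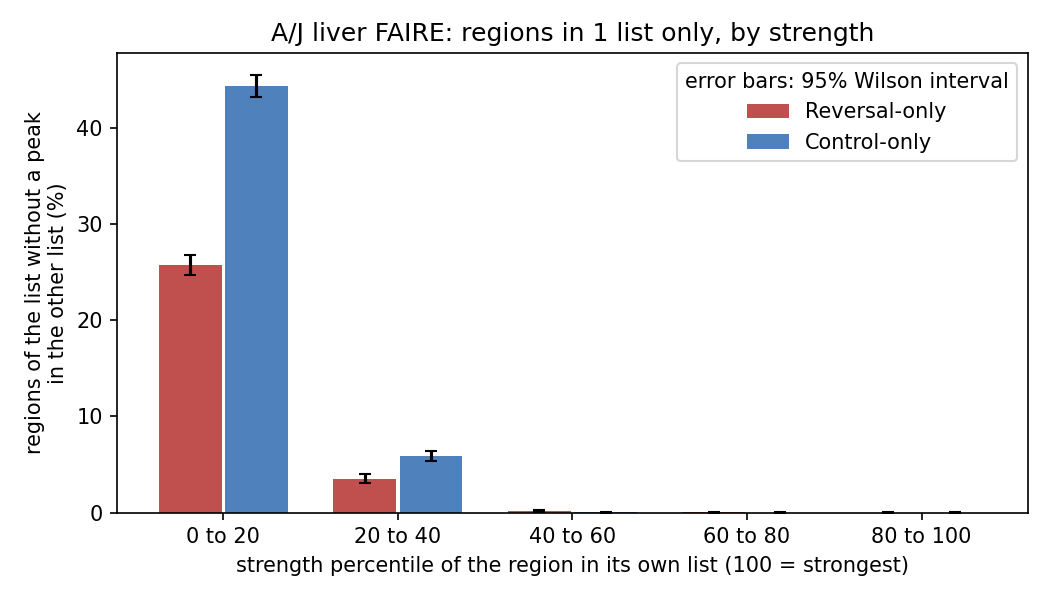
The bars give, for 5 bins of strength percentile, the percent of Reversal regions without a Control peak and of Control regions without a Reversal peak, with 95% Wilson intervals. In the weakest bin the bars stand at 25.7% and 44.4%, and above the percentile of 40 neither is visible at this scale.

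Peak names carry a chromosome and a serial number, and these numbers ran in the order of position on all 19 chromosomes of both lists. The highest numbers summed to 114145 in the Reversal list and 135733 in the Control list, of which the lists hold 30.4% and 26.4%. No source says what the numbers count. If they count all called peaks along a chromosome, as their order would allow, the numbers between neighbouring listed peaks tell whether further peaks had been called there. Between neighbouring Reversal peaks, 3202 intervals held a Control-only region, and in 0 of them were the flanking peaks numbered consecutively, which allows a share of up to 0.0937%. Of the 31520 intervals that held no Control-only region, 11617 (36.9%) were numbered consecutively. The same was seen the other way round: 0 of 1856 intervals between Control peaks that held a Reversal-only region (allowing up to 0.162%) were numbered consecutively, against 10828 of 33936 (31.9%) that held none. In all 3202 and all 1856 intervals the missing numbers were at least as many as the regions held. The contrast depended on interval length, since most intervals holding a region were over 20 kb. At that length consecutive numbers were found in 0 of 1975 intervals holding a Control-only region against 20.7% of those holding none, and in 0 of 1218 holding a Reversal-only region against 16.5%. Under 1 kb the counts were 0 of 41 (allowing up to 7.32%) against 78.6% for Control-only and 0 of 15 (up to 20%) against 79.6% for Reversal-only regions. The numbers do not say where in an interval the unlisted peak lay. On that reading of the numbers, each Reversal-only or Control-only region flanked by 2 listed peaks lay in an interval with at least as many unlisted peaks of the other list. Absence from a list is therefore not given here as closed chromatin.

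Both kinds of region were spread over the genome. Reversal-only regions made up between 4.23% of regions on chromosome 14 (3.26 to 5.48) and 6.70% on chromosome 13 (5.47 to 8.18), and Control-only regions between 8.42% on chromosome 17 (7.26 to 9.74) and 109 of 995 regions on chromosome 18 (9.16% to 13.0%). Along the chromosome, the region after a Reversal-only region was again Reversal-only in 6.02% of cases (5.05 to 7.16), close to the 5.25% among all regions. After a Control-only region it was again Control-only in 10.3% (9.33 to 11.3), close to 9.49%. The longest run of Control-only regions held 4, on chromosome 4 from 35031125 to 35040347, and the longest run of Reversal-only regions held 3, spread over chromosome 10 from 89232357 to 90495445.

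The other 4 lists were not used to form the regions and show how often the same sites held a listed peak elsewhere. An A/J HF peak lay in 25.6% of Reversal-only regions (23.7 to 27.6), in 35.2% of Control-only regions (33.7 to 36.8) and in 90.4% of shared regions. Reversal-only regions were thus found in the HF list less often than Control-only regions, by -9.63 percentage points (Newcombe interval -12.1 to -7.13). In C57BL/6J liver the difference had the same sign in each list: -12.9 points on Reversal (-15.0 to -10.7), -8.01 on HF (-10.1 to -5.86) and -15.4 on Control (-17.4 to -13.3). No other list of the series held a peak at 1288 of the 1977 Reversal-only regions (65.1%) and at 1841 of the 3571 Control-only regions (51.6%), against 7.61% of shared regions. At the other end, 130 Reversal-only regions (6.58%) and 529 Control-only regions (14.8%) held a peak in all 4 other lists.

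**Figure D2:**
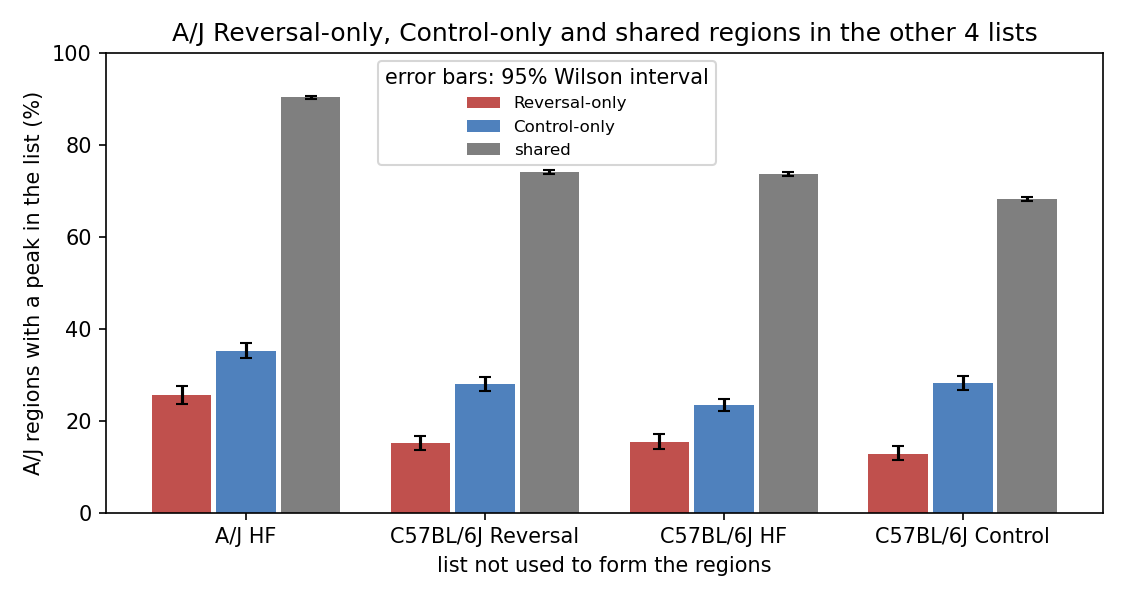
The bars give the percent of Reversal-only, Control-only and shared A/J regions with a peak in each of the 4 lists that were not merged, with 95% Wilson intervals. Shared regions stand between 68.2% and 90.4%, Control-only regions between 23.4% and 35.2% and Reversal-only regions between 12.8% and 25.6%.

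The 2 kinds of region behaved differently with strength. Among Control-only regions, the share with a C57BL/6J Control peak was 21.9% at percentiles of 0 to 5 (19.6 to 24.5), 25.4% at 5 to 10, 33.2% at 10 to 20 and 38.2% at 20 to 40 (33.7 to 42.9). Shared regions of like Control rank had similar shares of 21.0%, 27.8%, 30.6% and 42.2%. For Reversal-only regions the order was the opposite, with 14.7% (12.2 to 17.6), 13.8%, 11.2% and 7.14% (4.51 to 11.1) over the same bins. Shared regions of like Reversal rank had 35.8%, 34.3%, 36.6% and 44.9%. In the C57BL/6J Reversal list, Reversal-only regions did not gain with strength either, at 15.9% in the weakest and 10.9% in the strongest of these bins (13.3 to 18.9 and 7.56 to 15.5), whereas Control-only regions had 21.5% and 38.9%. The A/J HF list differed: there the share grew with strength in both, to 104 of 238 Reversal-only regions (43.7%) and 239 of 419 Control-only regions (52.3% to 61.7%) at 20 to 40.

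At the very top of the Reversal-only class this changed. The strongest Reversal-only region lay on chromosome 16 from 15885445 to 15885878, at a percentile of 62.8 in A/J Reversal and 52.5 in A/J HF. In C57BL/6J it ranked at 62.6 on Reversal, 20.5 on HF and 6.74 on Control. It was a narrow site of 434 bp that ranked highest on Reversal in either strain. The next lay on chromosome 8 from 58291201 to 58291585 and on chromosome 5 from 35976795 to 35977240, at 57.2 and 53.5 in A/J Reversal and at 46.5 and 45.1 in A/J HF. In C57BL/6J they ranked at 70.7 and 59.1 on Reversal, 55.7 and 35.3 on HF, and 63.6 and 45.2 on Control. The next pair, on chromosome 13 from 60410629 to 60410978 and on chromosome 11 from 44197582 to 44197937, ranked at 48.0 and 46.9 in A/J Reversal and at 51.8 and 56.9 in C57BL/6J Reversal, against 7.06 and 30.8 in C57BL/6J Control. All 5 thus had a C57BL/6J Reversal peak that ranked above the C57BL/6J Control peak. With these values in view, 2 wider sets were tabulated. Of the 47 Reversal-only regions above the percentile of 30, 10 held both C57BL/6J peaks and 8 of the 10 ranked higher on C57BL/6J Reversal. Of the 9 above the percentile of 40, among them the 5 just named, 7 held both and 7 ranked higher. The 47 include these 9, so 7 of the 10 regions with both peaks are the same 7. Neither set is therefore separate from the values already seen. Among all A/J shared regions at Reversal percentiles of 40 to 60 with both peaks, 37.4% ranked higher on C57BL/6J Reversal. Most of the 47 regions were weaker than these, with a median percentile of 34.2.

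Of the 5 strongest Control-only regions, the top pair held no peak elsewhere and the others ranked low in A/J HF. The top pair, on chromosome 1 from 13566546 to 13566882 and on chromosome 2 from 172981424 to 172981803, had percentiles of 41.2 and 40.4 in A/J Control and no peak in any of the other 5 lists. Next in order, the region on chromosome 10 from 80873107 to 80873531, was at 39.5 in A/J Control and 16.8 in A/J HF, with 26.4 on C57BL/6J Reversal and 17.1 on C57BL/6J Control. The other pair, on chromosome 2 from 28554992 to 28555861 and from 167105799 to 167106641, were wider, at 870 and 843 bp, and ranked at 38.6 and 38.3 in A/J Control. Of the 56 Control-only regions above the percentile of 30, 15 held a peak in both C57BL/6J lists, and 6 of the 15 ranked higher there on Reversal, against 36.3% of all A/J shared regions at Control percentiles of 40 to 60. Those shared regions were stronger than nearly all of the 56, whose median percentile was 32.0. By width, the largest Reversal-only region was 1350 bp on chromosome 1 from 135279142 to 135280491, and the largest Control-only region 1942 bp on chromosome 7 from 139507193 to 139509134, both below the percentile of 20 in their list.

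Shared regions kept much the same order on both diets. Across the 32086 shared regions, Spearman's rho between the Reversal and Control percentiles was 0.968, a description over regions that are not independent and share libraries. The median change, Reversal minus Control, was -1.10 percentile points (quartiles -5.11 and 1.59). When only the shared regions were ranked against each other it was -0.07 (quartiles -3.48 and 3.15). Of the shared regions, 1705 (5.31%) ranked higher on Reversal by 10 points or more and 3733 (11.6%) lower, but ranked among themselves the counts were 2434 (7.59%) and 2363 (7.36%), so that the direction of the surplus turned. With lists of equal length they were 2143 and 2775. The spread lay in the weak sites. The SD of the change over regions was 11.3 points at mean percentiles of 0 to 20 and 2.09 points at 80 to 100.

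**Figure D3:**
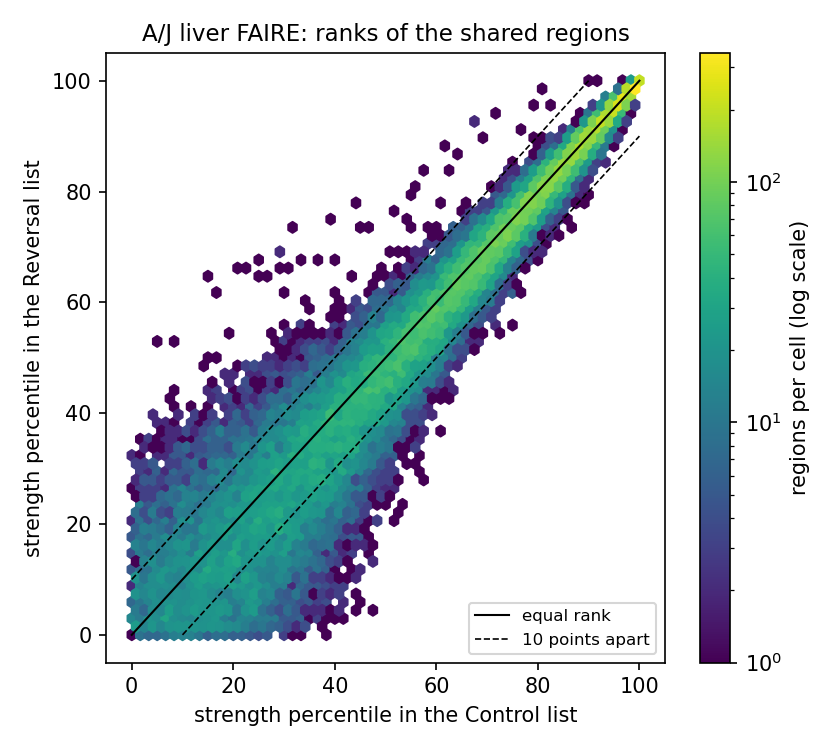
Each cell counts shared A/J regions by strength percentile in the Control list (horizontal) and in the Reversal list (vertical), on a log colour scale, with lines at equal rank and 10 points either side. The cloud narrows towards the strong end, and a scatter of single regions stands above it at Reversal percentiles over 50, with a smaller one below it.

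Among stronger shared regions, the direction of the changes depended on their size when whole lists were ranked. By 10 points or more, 281 regions ranked higher and 666 lower on Reversal at mean percentiles of 40 to 60, and 43 and 87 at 60 to 80. When only shared regions were ranked, these counts turned to 530 higher and 470 lower, and 116 and 70. By 20 points or more they were then 62 and 17, and 14 and 0, so that rises led at either size. Over all shared regions, 352 ranked higher and 651 lower by 20 points or more, and 455 and 291 when only shared regions were ranked. At a mean percentile of 40 or more and with whole lists ranked, by contrast, 52 regions ranked higher on Reversal by 20 points or more. Lower by as much were 24. At 60 or more the counts were 13 and 0. These limits were not planned. Rises and falls of 10 to 20, 20 to 30 and 30 or more points had first been tabulated against C57BL/6J, then the regions that moved by 30 points or more were looked at by themselves, and the limits of 40 for the mean and 20 for the change were settled on last, with C57BL/6J values already seen. What the C57BL/6J lists show at these regions is therefore a description of a set chosen with that in view, has no test, and is no independent repeat of the A/J difference. Of the 52 regions up in A/J, 32 held a peak in both the C57BL/6J Reversal and the C57BL/6J Control list, and 32 of those 32 ranked higher there on Reversal, 28 of them by 10 points or more. Among all A/J shared regions with a peak in both C57BL/6J lists, 46.2% ranked higher on Reversal and 14.7% by 10 points or more. Of the 24 regions down in A/J, 17 had both C57BL/6J peaks, of which 6 ranked higher on C57BL/6J Reversal, with a median change of -4.96 points. Another 15 of the 52 regions up had no C57BL/6J peak.

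In these 32 regions the median percentile was 72.9 in A/J Reversal (lowest 53.0, highest 94.8), 65.0 in A/J HF (40.7 to 91.3) and 39.8 in A/J Control (20.8 to 71.3). In C57BL/6J it was 73.9 on Reversal (23.3 to 94.9), 54.6 on HF (13.5 to 78.1) and 58.1 on Control (6.07 to 85.9). The C57BL/6J change, Reversal minus Control, ran from 7.71 to 50.7 points with a median of 15.3. In A/J, HF lay between Reversal and Control in 31 of the 32, but the choice of regions sets those 2 lists far apart, and the order is not comparable with that in C57BL/6J. There Reversal ranked above both other lists in 31 of 32, and HF ranked above Control in 16. The regions lay on 15 chromosomes and were little wider on Reversal, with a median width ratio of 1.11. No source says how libraries were arranged in preparation or sequencing, so diet and any handling shared by the Reversal libraries of both strains cannot be told apart.

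The other sets tabulated gave less even results, and some of them overlap with the 32 regions above. The sets up by 20 to 30 and by 30 points or more together contain all 32. They are therefore not separate from the regions chosen with C57BL/6J values seen. Of A/J shared regions up by 10 to 20 points with both C57BL/6J peaks, 39.0% of 249 ranked higher on C57BL/6J Reversal, of those up by 20 to 30 points 78.1% of 32, and of those up by 30 points or more 18 of 18. The most numerous of these sets, up by 10 to 20 points, lay below the 46.2% among all A/J shared regions, but was weaker. Its median percentiles were 33.1 on A/J Reversal and 18.8 on A/J Control, against 53.4 and 55.1 for all shared regions. At mean percentiles of 20 to 40, 40.3% of regions up by 10 points or more ranked higher in C57BL/6J. Regions that changed by less had 26.6%, and regions down 32.9%. At 40 to 60 these shares were 62.9%, 35.7% and 43.0%, and at 0 to 20 they were 24.7%, 23.0% and 26.9%. The regions up at 40 to 60 include those of the 32 regions that lie in that bin. For A/J regions down by 10 to 20, 20 to 30 and 30 points or more, 535 of 1487, 82 of 247 and 9 of 25 ranked higher in C57BL/6J. Chosen instead by C57BL/6J, 415 regions at a mean percentile of 40 or more were up by 20 points or more in that strain. Of these, 408 had a peak in both A/J lists and 35.5% ranked higher on A/J Reversal, close to the 36.8% among all C57BL/6J shared regions of that strength. By 10 points or more it was 2.94% (12 regions) against 0.866%. Another 734 regions of that strength were down by 20 points or more in C57BL/6J, and 181 of them had a peak in both A/J lists. Of these 181, 25.4% ranked higher on A/J Reversal, and 5.52% (10 regions) by 10 points or more. The share up by 10 points or more was thus raised in either direction. Chosen from the C57BL/6J side, then, most regions up in that strain were not up in A/J.

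**Figure D4:**
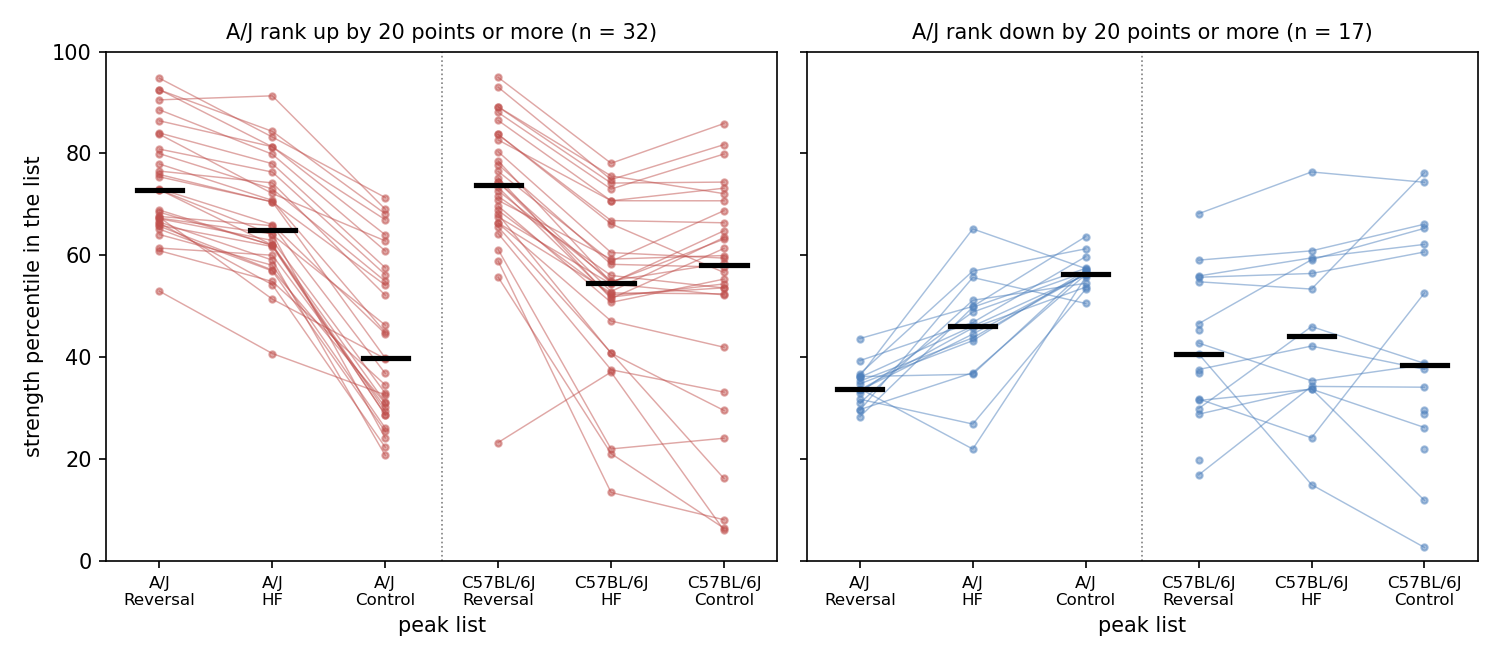
Lines join the strength percentiles of single regions over the 3 lists of each strain, for shared A/J regions with a mean percentile of 40 or more that ranked at least 20 points higher (32 regions) or lower (17 regions) on A/J Reversal than on A/J Control and held a peak in both C57BL/6J lists. Black bars are medians, and both limits were chosen with the C57BL/6J values seen. On the left the C57BL/6J Reversal median is 73.9 against 58.1 on C57BL/6J Control, and on the right 40.7 against 38.6, although the median change of the same 17 regions is -4.96 points.

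The largest rank gains show both kinds of site. On chromosome 4 from 64357582 to 64358032, a region of 451 bp on Reversal and 374 bp on Control ranked at 64.9 in A/J Reversal and 14.8 in A/J Control. In C57BL/6J it ranked at 64.7, 47.0 and 33.3 on Reversal, HF and Control. On chromosome 10 from 52237992 to 52238458 the A/J percentiles were 66.5 on Reversal and 20.8 on Control, and the C57BL/6J ones 58.9 and 8.13. These sites were high on Reversal in both strains. On chromosome 16 from 18339949 to 18340381, by contrast, the percentile was 53.3 in A/J Reversal, 12.9 in A/J HF and 5.53 in A/J Control, with no C57BL/6J peak. The other gains in the top 5 lay on chromosome 9 from 28169435 to 28169856, at 52.4 and 8.14, and on chromosome 7 from 99109788 to 99110157, at 61.6 and 17.3, where C57BL/6J had a peak on Reversal at 59.5 and none on HF or Control. In A/J HF the regions on chromosomes 9 and 7 ranked at 50.4 and 58.1, again nearer to A/J Reversal than to A/J Control.

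The largest rank losses lay at weaker sites. On chromosome 4 from 78159041 to 78159407 the percentile was 3.94 in A/J Reversal, 11.6 in A/J HF and 46.8 in A/J Control, with no C57BL/6J peak. On chromosome 4 from 149512200 to 149512651 it was 4.51 in A/J Reversal and 44.5 in A/J Control, and the peak was 231 bp wide against 452 bp. This second region held no A/J HF peak. The region on chromosome 17 from 34446592 to 34447046 was different: it stood at 3.25 in A/J Reversal, 43.1 in A/J HF and 41.6 in A/J Control, and at 63.9, 71.0 and 66.6 in the C57BL/6J Reversal, HF and Control lists. Here A/J Reversal alone was low. The other pair, on chromosome 6 from 72690611 to 72691216 and on chromosome 7 from 3581154 to 3581688, ranked at 6.29 and 0.545 on A/J Reversal against 44.3 and 38.2 on A/J Control.

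Regions whose rank was higher on A/J Reversal by 10 points or more seldom held a peak in both the C57BL/6J Reversal and the C57BL/6J Control list. Of these 1705 regions, 299 (17.5%) held a peak in both C57BL/6J lists, against 1759 of the 3733 regions down (47.1%) and 72.2% of those that moved by less, which were stronger. In each of the 3 bins of strength up to 60 the regions up still had fewer and the regions down had more than the rest. At mean percentiles of 20 to 40 both peaks were present in 124 of 778 regions up, 841 of 1789 regions down and 1750 of 4280 others, and at 40 to 60 in 70 of 281, 447 of 666 and 3739 of 5870. An A/J HF peak was present in 73.1% of the regions up and 79.7% of the regions down. Where it was, the median percentile of the regions up was 38.2 on Reversal, 23.8 on HF and 22.1 on Control, and of the regions down 22.1 on Reversal, 28.9 on HF and 38.1 on Control. The choice of these regions fixes the gap between A/J Reversal and A/J Control, so that an HF median between them is no finding.

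Shared regions were narrower on Reversal than on Control. Over whole lists, A/J HF peaks were narrower than Control peaks too. At percentiles of 40 to 60 the median width was 425 bp on Reversal, 426 bp on HF and 446 bp on Control. At 80 to 100 it was 962, 997 and 1020.5 bp. The summed peak width of a region had a median of 496 bp on Reversal and 542 bp on Control, and the median ratio of Reversal to Control was 0.966 (95% order-statistic interval 0.965 to 0.967, over regions). Of the 32086 regions, 22529 (70.2%) were narrower on Reversal, 9239 wider and 318 equal. A change of 1.5-fold or more was rarer: 1396 (4.35%) were that much narrower and 179 (0.558%) that much wider. The loss was the same at both edges, since the Reversal peak began a median of 8 bp later (quartiles -5 and 25) and ended a median of 8 bp earlier (-5 and 25) in the 31308 regions with 1 peak in each list. Summits hardly moved, with a median distance of 6 bp and 91.0% within 20 bp.

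The narrowing was present at each level of strength. The median ratio was 0.951 in regions with a mean percentile of 0 to 20, 0.952 at 20 to 40, 0.960 at 40 to 60, 0.968 at 60 to 80 and 0.976 at 80 to 100. The share of narrower regions went the other way, from 66.4% in the weakest to 74.2% in the strongest bin. Width followed rank to a degree: the ratio was 1.06 where the rank was higher on Reversal by 10 points or more and 0.902 where it was lower, with Spearman's rho of 0.316 between the rank change and the log2 width ratio over the 31308 regions. It was 0.971 where the rank among shared regions differed by under 1 point, so that regions of equal rank were narrower too. A narrowing of 1.5-fold or more was seen in 0.178% of regions under 400 bp wide on Control and in 7.22% of those from 800 to 1600 bp. The narrowest listed peak in a shared region was 186 bp on Reversal, which bounds the ratio at narrow sites.

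**Figure D5:**
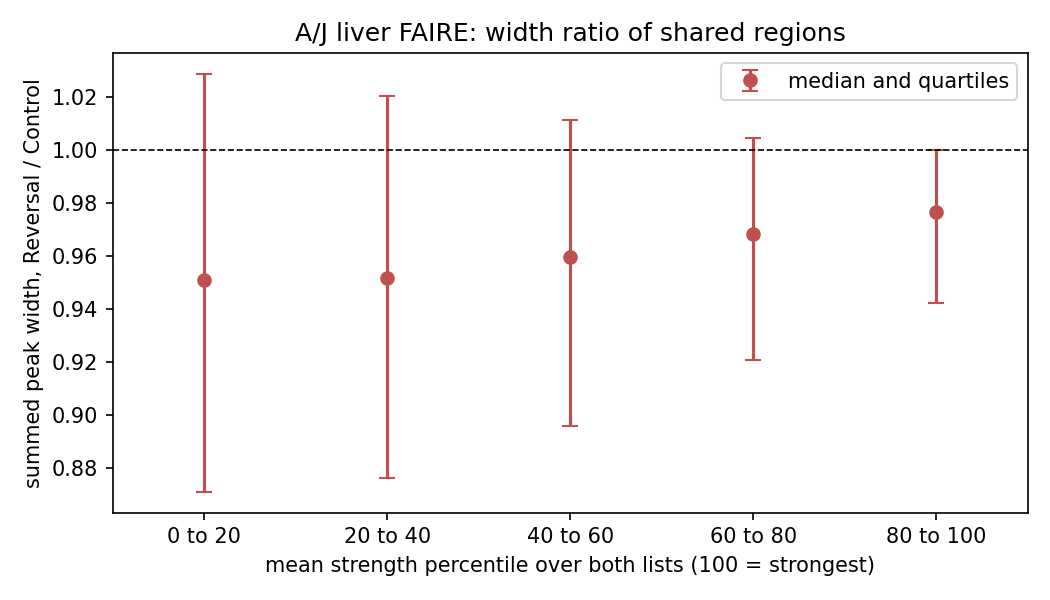
Points give the median ratio of summed peak width, Reversal over Control, of shared A/J regions in 5 bins of mean strength percentile, and bars run from the lower to the upper quartile. The dashed line marks equal width. All 5 medians lie below it, from 0.951 to 0.976, and the quartiles draw in with strength.

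Broad Control peaks were more often broken up on Reversal than the reverse. In 627 shared regions a single Control peak was matched by several Reversal peaks, and in 119 a single Reversal peak by several Control peaks. The regions with several Reversal peaks were broad and strong, with a median Control width of 1546 bp and a median Reversal percentile of 74.2, and the Reversal peaks within them were separated by a median of 71 bp (quartiles 39 and 113). These sites were also fragmented elsewhere. Where the A/J HF list had a peak in them it had several in 44.3%, and the C57BL/6J Reversal list had several in 47.1%. In the 119 regions broken up on Control these shares were 38.8% and 32.7%. In regions with 1 peak in each list they were 0.992% and 2.25%, but those were narrower, with a median of 529 bp on Control, and the part of width in the contrast was not tested.

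Among the strongest 50% of both lists, 15970 regions held 1 peak in each, and the largest width ratios there came with rank changes of under 6 points in 9 of 10 regions. On chromosome 10 from 118304268 to 118306253 the peak was 378 bp wide on Reversal and 1986 bp on Control, at percentiles of 55.3 and 54.9. On chromosome 17 from 35390605 to 35392010 it was 339 bp on Reversal and 1396 bp on Control, at percentiles of 62.6 and 52.4, and on chromosome 2 from 25035938 to 25037515 390 and 1578 bp. These are sites where a broad Control peak had a short Reversal counterpart. In the other direction, a peak on chromosome 7 from 106303784 to 106305605 was 1755 bp wide on Reversal and 575 bp on Control, at percentiles of 66.0 and 68.1, and one on chromosome 2 from 30626860 to 30628020 was 1161 bp on Reversal and 437 bp on Control. The remaining regions of these top 5 lists had ratios of 0.271 and 0.317 on the narrow side, and of 2.19 to 2.28 on the wide side.

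At regions with a large A/J width change, the C57BL/6J ratio of Reversal to Control stayed near 1. Of the 1373 regions with 1 peak in each list that were narrower on Reversal by 1.5-fold or more, 769 held exactly 1 peak in each of the 6 lists. Their median width was 461 bp on Reversal, 632 bp on HF and 854 bp on Control in A/J, and 573, 464 and 610 bp in C57BL/6J, where HF was the narrowest. The C57BL/6J ratio of Reversal to Control had a median of 0.994 there and of 1.02 in the 17990 regions without a large change in A/J. In those 17990 regions the median A/J width was 645 bp on Reversal, 648 bp on HF and 680.5 bp on Control. For the 61 regions wider on A/J Reversal the C57BL/6J median was 1.06. Over all C57BL/6J shared regions, 2.46% were wider on Reversal by 1.5-fold or more and 1.73% narrower. The choice of these regions fixes the A/J Reversal and Control widths, and HF lay between them in either set.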

How the data were processed

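FAIRE-seq libraries of liver from A/J and C57BL/6J mice on 3 diets were grouped by sample title, 2 per group. For Reversal the treatment protocol (8 weeks of control diet) was followed where the diet tag gives 16. Per the submitters' processing notes the build is mm9, and Bowtie2, TopHat and DESeq2 were used, with no role or version. For the peak caller, its threshold and any pooling of libraries, the sources used here give nothing. The authors deposited 1 peak list per strain and diet, without a header, with start, end, summit and a signal value per peak. The list name gives strain and diet. The depth per library is not known. DESeq2 belongs to expression tables that were not used here.

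Lists were read for chromosomes 1 to 19 in Python 3.11.15 with pandas 2.3.3 and merged at an overlap of 1 bp. Signal was turned into percentiles within a list (ties averaged), width into summed peak width per region. Merging was run on simulated lists cut from the same A/J Reversal peaks, and the class totals of 34741 of 34741 planted regions came back. Shared peaks had the same start in both simulated lists, so full recovery was built in. Partial overlaps and split peaks were not simulated. Shares carry 95% Wilson intervals and medians order-statistic intervals. No test was run. Regions named are the 5 of highest signal in each class, the 5 largest rank and width changes in each direction, and the widest of each class. The strong regions with rank changes of 20 points or more are outside that rule and were chosen after their values, C57BL/6J included, were seen. The comparison, its classes and all limits were chosen with earlier results of these data known.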

Additional observations from a re-analysis of the deposited data

Results flagged for a closer look

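The width of shared regions differed in direction between the strains, which was not tested. In A/J the median ratio of Reversal to Control width was 0.966, and in C57BL/6J, treated the same way, it was 1.01. The breaking up of peaks differed likewise: several Reversal peaks lay in a single Control peak in 627 A/J and 157 C57BL/6J regions, and several Control peaks in a single Reversal peak in 119 A/J and 390 C57BL/6J regions. With 1 list per strain and diet, a difference between strains cannot be told apart from one between lists.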

How the results depend on the processing

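Of 42 alternative values, 33 were classed as close to the reported ones and 9 as moved. For counts the close class was wide. It took in 2434 regions higher by 10 points or more against 1705, and 1339 Reversal-only regions against 1977 with the strongest 80% of each list. Most of the 42 are counts or shares, which taken singly have no direction to change. Only the medians of rank change and width ratio could have changed direction, and 0 of them did. With the strongest 50% of each list the classes numbered 592 Reversal-only, 1269 Control-only and 16599 shared regions, fewer by construction. The median rank change was -0.273 with lists of equal length and -0.0693 among shared regions only. The median width ratio was 0.971 where that rank differed by under 1 point. Counting HF peaks within 500 bp, 33.2% of Reversal-only and 46.1% of Control-only regions had one. Ranked among shared regions only, 2434 regions were higher and 2363 lower by 10 points or more, against 1705 and 3733 as reported, so the surplus turned. Of the strong A/J regions up by 20 points or more, those with both C57BL/6J peaks numbered 31 or 32 under each of the 3 alternatives, chosen after seeing the data, and all of them ranked higher on C57BL/6J Reversal. These alternatives vary the ranking or overlap and not the limits of 40 and 20 that were picked with those values seen. No paired analysis was possible because each group has 1 list that carries no library number, and for the same reason no library could be left out. The list cut-off limits all counts of regions in 1 list only.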
